A study of Rattus norvegicus with 252 samples.

Results

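The comparison described here set the striatum of Q130 knock-in rats against that of wild-type (WT) rats at 12 months of age, the oldest animals sampled. It took every library whose title names striatum, 12 months and one of the genotypes: 10 Q130 and 10 WT libraries, 20 of the 252 samples in the series and of the 240 that are not repeat libraries. The Q130 rats were Long Evans rats heterozygous for a knock-in of a lengthened glutamine-coding repeat, made as a model of Huntington disease, and the WT rats were Long Evans rats without that allele. Each genotype had 5 females and 5 males, each animal gave all 4 tissues studied (striatum, cortex, hippocampus and cerebellum), and all 12-month libraries carried the same batch label. The first part of the animal identifier took 6 values among the Q130 and 6 among the WT animals, with 0 shared, so whatever it stands for cannot be told apart from genotype.

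The striatum is the input station of the basal ganglia, which help to select and learn movements. Most of its neurons are medium spiny neurons, inhibitory cells that receive cortical and dopamine input, and these are the cells that Huntington disease affects first. In patients and in many knock-in rodents the genes that set medium spiny neurons apart from other neurons lose expression, and for that reason genes enriched in the striatum were followed as a group here. RNA came from whole frozen tissue, so fewer cells of a type and less RNA per cell cannot be told apart.

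The files name genes by Ensembl identifier only and pair none with a symbol, and 0 of the 32883 identifiers matched the reference table. The targeted gene and the marker genes of neurons and glia could therefore not be looked up, no sequence could be shown, and genes were described in groups defined by their measured expression in other libraries, with 4 identifiers given individually. Tissue labels were checked with tissue-enriched genes, defined from WT libraries of 2 months as those exceeding all other tissues by 2 log2 units or more.

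Library depth was 28.3 to 35.4 M counts in the Q130 libraries and 26.0 to 42.3 M in the WT libraries, with 18219 to 18525 genes detected in Q130 and 18111 to 18729 in WT. Likeness between libraries was measured as the correlation of log2 CPM (counts scaled to the library's total) over 15785 genes, and a library was set apart when its median correlation with the other striatal libraries was under 0.97. Q130 female 2 (0.961) and Q130 male 3 (0.859), as labelled, were under it, and the other 18 were at 0.980 to 0.984. Each result below is given with all 20 libraries and with the 18.

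**Figure D1:**
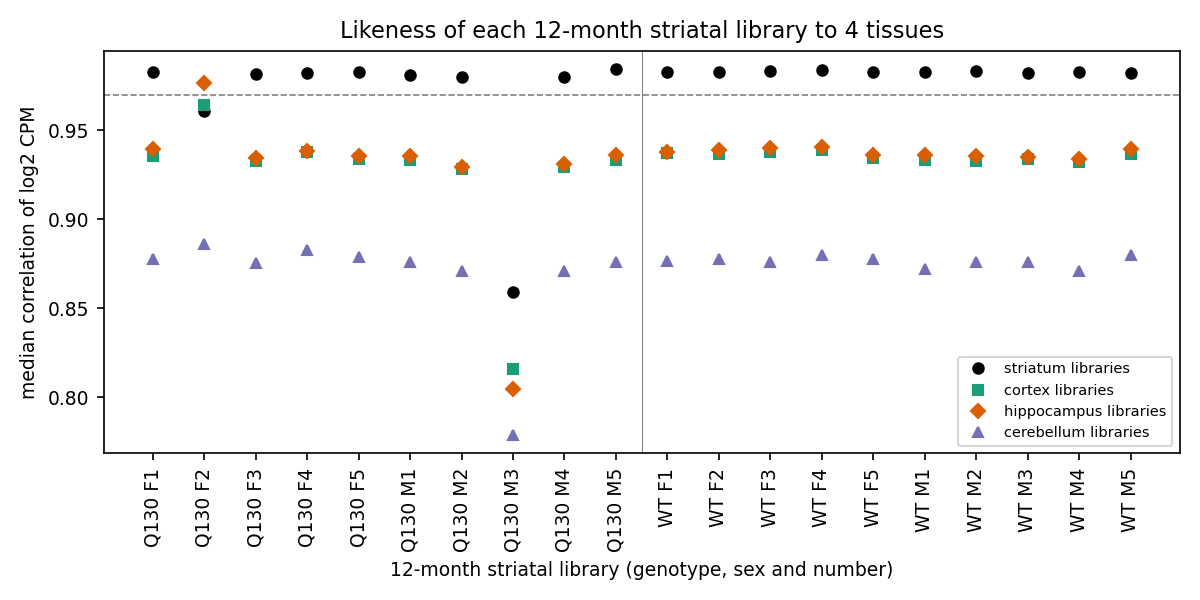
Median correlation of log2 CPM (vertical axis) of each 12-month striatal library with the striatal, cortical, hippocampal and cerebellar libraries of the study; Q130 libraries are on the left, WT libraries on the right, F marks females and M males, and the dashed line is 0.97. Q130 F2 has its highest correlation with hippocampal libraries (0.976), and Q130 M3 is low against all 4 tissues (0.859 with striatal libraries).

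The library labelled Q130 female 2 carried hippocampal and striatal gene groups side by side. Its correlation was 0.976 with hippocampal libraries, 0.964 with cortical, 0.961 with striatal and 0.886 with cerebellar libraries. The 55 hippocampus-enriched genes had a mean of 2.20 log2 CPM in it and of -0.81 to -0.44 in the other 18 libraries, while the 100 striatum-enriched genes had a mean of 2.49 in it and of 3.91 to 4.23 in the 18. Across 15785 genes its difference from the median of the 18 correlated at 0.82 with the difference between median hippocampal and striatal libraries, with a slope of 0.61; genes are not independent replicates.

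The same library also went against its sex label. Sex-marked genes were taken from the cerebellum at 2 months, as those called there with more than 3 log2 units between the sexes: 5 male-marked and 2 female-marked genes. The male-marked genes had a mean of 4.23 log2 CPM in the library labelled Q130 female 2, of -3.50 to -1.94 in the other 9 females and of 4.79 to 5.37 in the males. Its male-marked genes reached 42.4% to 76.0% of the median CPM of the males, and its female-marked genes 36.9% and 39.3% of the median of the other females. Among all 240 libraries it was the only 1 with both groups above 2 log2 CPM. The animal's libraries from cortex, hippocampus and cerebellum correlated with their own tissues at 0.986, 0.985 and 0.981. What this library's tube held was not tested.

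**Figure D2:**
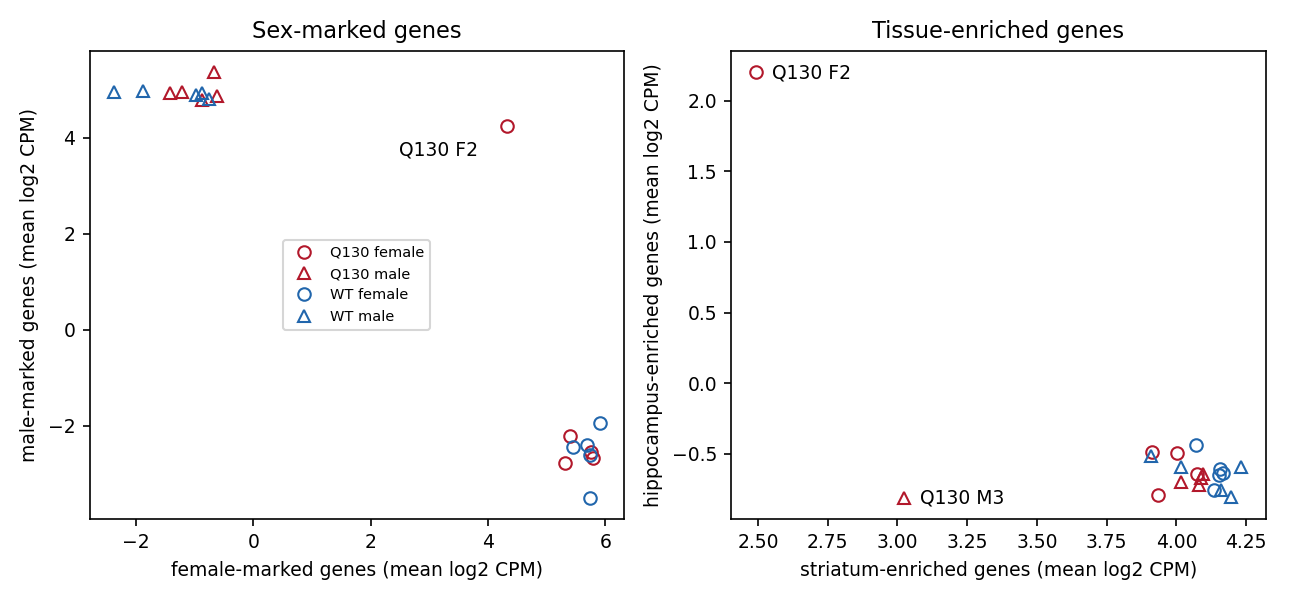
Left, mean log2 CPM of the 5 male-marked genes against the 2 female-marked genes in the 20 libraries; right, mean log2 CPM of the 55 hippocampus-enriched against the 100 striatum-enriched genes. Q130 libraries are red and WT libraries blue, circles are labelled female and triangles male; the library labelled Q130 female 2 is alone in carrying both sex-marked groups (4.23 and 4.32) and a raised hippocampal group (2.20).

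The library labelled Q130 male 3 departed in a different set of genes. It held 709 genes at least 3 log2 units above the median of the 18 libraries, against 5 to 25 in each of those 18, and these genes made up 11.1% of its counts, against a median of 0.573% in the 18. Of the 709, 216 lay under 1 CPM in the median of the 18. Among the 709, out of 15785 genes, were 5 of the 57 cortex-enriched, 1 of the 55 hippocampus-enriched and 17 of the 272 cerebellum-enriched genes. The cortex-enriched genes had a mean of -0.411 log2 CPM in this library, above the range of -1.08 to -0.569 in the 18. Its hippocampus-enriched mean was -0.810, against -0.808 to -0.441 in the 18. Its cerebellum-enriched mean was 0.333, inside the range of 0.170 to 0.617 in the 18. The striatum-enriched genes had a mean of 3.02 log2 CPM in it, under the whole range of the 18 libraries.

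The cortex of the same animal, labelled Q130 male 4 in that tissue, showed the same departure. That library correlated at 0.894 with the cortical libraries, and it held 633 genes at least 3 log2 units above the median cortical library, 543 of them among the 709 of the striatal library. The differences of the 2 libraries correlated at 0.88 over 15785 genes. The hippocampus and cerebellum of this animal correlated with their own tissues at 0.983 and 0.986, held 17 and 16 such genes, and their differences correlated with those of the striatal library at 0.10 and 0.09. By relative gene length, the median difference of the striatal library was 0.08 log2 units in the shortest quintile of genes and -0.18 in the longest. The origin of these differences was not tested.

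**Figure D3:**
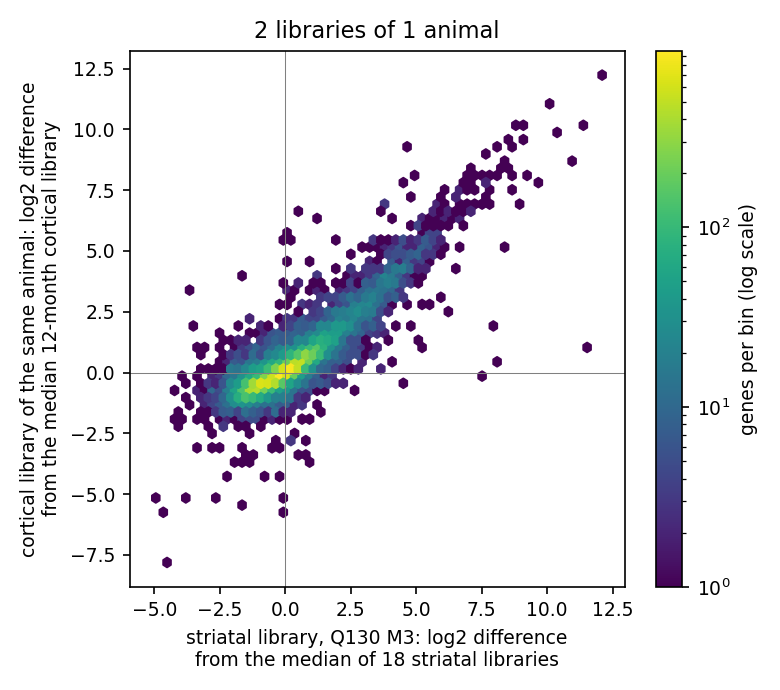
For each of 15785 genes, the log2 difference of the striatal library labelled Q130 male 3 from the median of the 18 striatal libraries (horizontal) against the log2 difference of the same animal's cortical library from the median 12-month cortical library (vertical), shown as the number of genes per bin on a log colour scale. The genes lie along the diagonal (correlation 0.88), with 543 genes at least 3 log2 units up in both.

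With all 20 libraries no striatal gene passed the test between Q130 and WT at 12 months. EdgeR's quasi-likelihood test with sex as a covariate called 0 of 15426 genes (0%) at an adjusted p, by Benjamini and Hochberg, under 0.05, and 980 genes had a higher and 525 a lower estimate in Q130 at an unadjusted p under 0.05 (6.35% and 3.4%). Without the 2 libraries 1 of 15565 genes was called (0.00642%), and the unadjusted counts were 1011 higher and 1030 lower (6.5% and 6.62%). The excess of higher estimates was thus present with the 2 libraries and not without them. Of the genes at an unadjusted p under 0.05 in the 18, 92 had the opposite sign with all 20, and 940 genes were under 0.05 in both.

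Leaving the 2 libraries out also narrowed the estimates, which in part follows from the rule, as it removed the libraries least like the others. The common biological coefficient of variation was 0.10 in the 18 libraries and 0.27 in the 20, and the median standard error of a log2 fold change was 0.06 in the 18 and 0.11 in the 20. A total of 467 genes had an estimate beyond 2-fold with all 20 libraries and 31 with the 18. Among genes with a mean of at least 1 CPM, the 95% interval lay within 1.5-fold in either direction for 95.6% of 14221 genes in the 18 libraries and for 82.4% of 14218 in the 20. DESeq2 called 52 genes in the 18 libraries, 34 higher and 18 lower, and 4 in the 20, all lower.

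The 1 gene called was ENSRNOG00000011073, which was lower in Q130. In Q130 libraries it ranged from 102 to 143 CPM with a median of 110.0, and in WT libraries from 117 to 173 CPM with a median of 156. The highest Q130 value belonged to the library labelled female 2; the other 8 of the 18-library fit spanned 102 to 119 CPM and only WT female 1, at 117 CPM, fell inside that span. On the length-scaled TPM scale the gene had 14.5 ± 1.09 in those 8 Q130 libraries and 20.7 ± 2.56 in the 10 WT libraries (SD). The log2 fold change was -0.46 ± 0.06 (SE) in the 18 libraries (edgeR adjusted p = 0.000859), a level 27.4% lower by the fit, and -0.42 ± 0.07 with all 20 (edgeR adjusted p = 0.0821). In the 18 libraries the estimate was -0.48 ± 0.10 in females and -0.44 ± 0.06 in males, and the difference between the sexes did not pass edgeR's interaction test (adjusted p = 0.964).

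The next gene with a lower estimate was ENSRNOG00000018198, which did not pass at 12 months. It ranged from 81.3 to 99.9 CPM in the 10 Q130 libraries, with a median of 91.2, and from 95.04 to 116 CPM in WT libraries, with a median of 107. All 10 Q130 values lay under the WT median, and the 2 libraries set apart, at 87.2 and 87.5 CPM, were inside the range of the others. Its levels were 27.4 ± 2.30 TPM in the 8 Q130 and 33.0 ± 2.40 TPM in the 10 WT libraries (SD). The log2 fold change was -0.22 ± 0.04 in the 18 libraries (edgeR adjusted p = 0.125) and -0.23 ± 0.04 in all 20 (edgeR adjusted p = 0.178).

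This gene had the opposite direction at 2 months and was near 0 at 6 months. At 2 months it was called higher in Q130 striatum, at 0.16 ± 0.04 (SE, edgeR adjusted p = 0.0456). That call is lost without the 6 animals whose column name matches 2 samples, at 0.14 ± 0.05 (edgeR adjusted p = 0.183). At 6 months its estimate was -0.02 ± 0.08. The 12-month effect less the 2-month effect was -0.37 ± 0.09 without the libraries set apart (edgeR interaction, adjusted p = 0.019) and -0.39 ± 0.08 with all of them (adjusted p = 0.0267). Its estimates in cortex, hippocampus and cerebellum at 12 months were -0.05, -0.01 and -0.09. By contrast ENSRNOG00000011073 was lower in Q130 striatum at every age, at -0.43 ± 0.03 at 2 months and -0.36 ± 0.04 at 6 months, and its effect at 12 minus 2 months was -0.03 ± 0.06 (edgeR adjusted p = 0.815).

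The genes with the smallest p in the 18-library fit among those with a higher estimate were low in abundance. Their estimates with all 20 libraries rested heavily on the library labelled Q130 male 3, which the 18-library fit leaves out. ENSRNOG00000000451 had 52.3 CPM in that library and 1.93 CPM in the library labelled Q130 female 2. In the other 8 Q130 libraries it ranged from 0.610 to 1.64 CPM with a median of 0.923, and in WT libraries from 0.114 to 1.08 CPM with a median of 0.406. Those ranges overlapped, with 2 of the 10 WT values inside the Q130 range. The log2 fold change was 1.21 ± 0.23 in the 18 libraries (edgeR adjusted p = 0.125) and 3.19 ± 0.98 in all 20 (edgeR adjusted p = 0.496). At 12 months its estimate was -0.89 ± 0.32 in cortex and 0.38 ± 0.23 in cerebellum, and in striatum at 6 months -0.12 ± 0.32. The cortex and 6-month fits each left 1 library out. Its effect at 12 minus 2 months was 2.00 ± 0.43 without the libraries set apart (edgeR interaction, adjusted p = 0.0104).

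ENSRNOG00000021243 had 204 CPM in the library labelled Q130 male 3, against 0.543 CPM in that labelled female 2. In the other 8 Q130 libraries it ranged from 0.901 to 1.53 CPM with a median of 1.21, and in WT libraries from 0.568 to 0.980 CPM with a median of 0.709. Of those 8 values, 7 were above the highest WT value. Its log2 fold change was 0.70 ± 0.14 in the 18 libraries and 3.40 ± 1.26 in the 20, with edgeR adjusted p = 0.127 and 0.496. The means of ENSRNOG00000000451 and ENSRNOG00000021243 pass 1 CPM over the 20 libraries only through the library labelled Q130 male 3: without it they were 0.772 and 0.920 CPM.

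**Figure D4:**
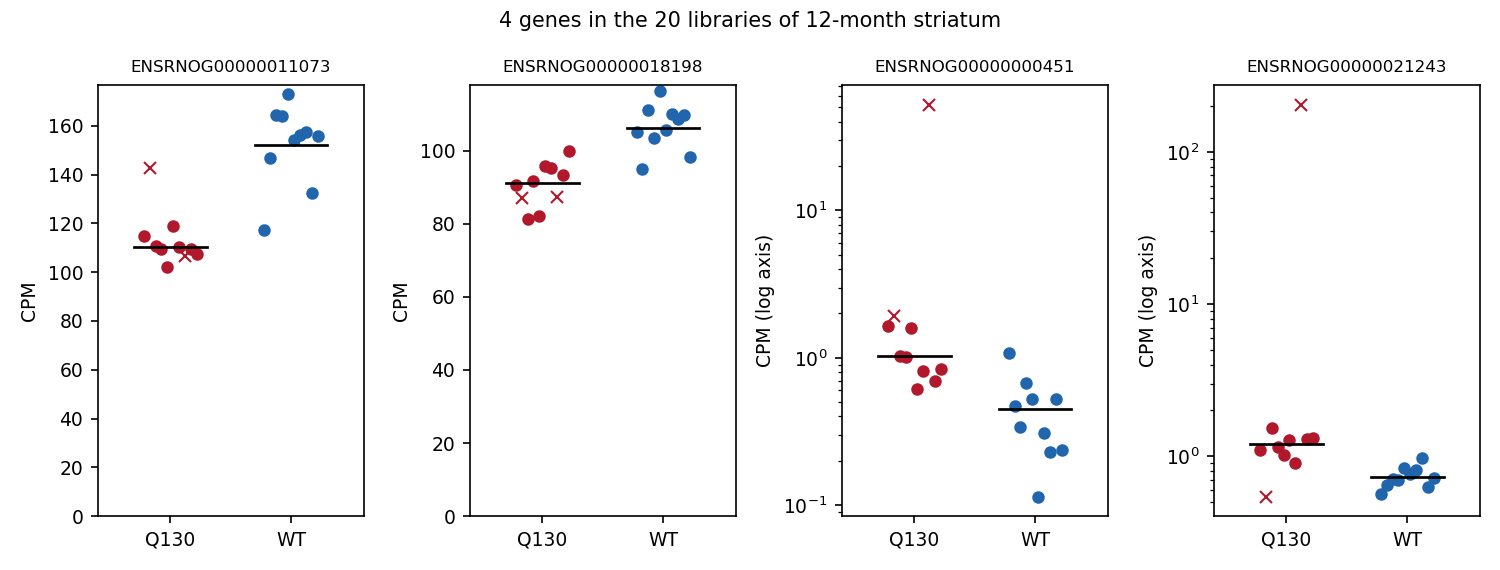
CPM of 4 genes in each of the 10 Q130 (left, red) and 10 WT (right, blue) libraries of 12-month striatum; crosses are Q130 female 2 and male 3, lines are means without them, and the last 2 panels have a log axis. ENSRNOG00000011073 lies at 102 to 119 CPM in the 8 other Q130 libraries and at 117 to 173 CPM in WT, and the crosses far above the other points in the last 2 panels are Q130 male 3 (52.3 and 204 CPM).

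Genes enriched in the striatum mostly had lower estimates in Q130 at 12 months, and the median was nearer to 0 without the 2 libraries. With all 20 libraries 91 of 100 were lower, with a median log2 fold change of -0.27, against a median of 0.02 over all 15426 genes tested. In the 18 libraries 80 were lower and 20 higher, with a median of -0.10 against 0.00 over all genes. At an unadjusted p under 0.05, 29 were lower and 4 higher in the 18, where 6.62% of all genes were lower and 6.5% higher. None of the 100 was called by edgeR. Their mean level was 4.03 ± 0.07 log2 CPM in 8 Q130 libraries and 4.12 ± 0.10 in 10 WT libraries (SD). All 8 Q130 libraries lay under the WT median, inside the WT range of 3.91 to 4.23. At younger ages the same 100 genes did not have mostly lower estimates: 91 were higher at 2 months, with a median of 0.16, and 55 at 6 months, with a median of 0.02 and 1 library left out. The WT striatal libraries of the 2-month comparison also helped to define these 100 genes. The younger libraries belong to another batch than those of 12 months. At 2 months, unlike at 12, the genotypes also shared values of the first part of the animal identifier. Age, batch and this difference in animal grouping cannot be told apart.

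Groups low in the striatum had higher medians with all 20 libraries, and the hippocampal, cortical and striatum-depleted groups had medians near that of all genes in the 18. Of the 55 hippocampus-enriched genes, 33 were tested with all 20 libraries and 34 in the 18; 31 had a higher estimate with all 20 (median 0.50) and 17 in the 18 (median -0.01). Of the 58 genes at least 2 log2 units lower in striatum than in every other tissue, 47 were tested, and 47 had a higher estimate with all 20 (median 0.50) and 25 in the 18 (median 0.02). The 57 cortex-enriched genes had 20 of 28 tested higher with all 20 (median 0.17) and 16 of 30 in the 18 (median 0.00). Leaving out Q130 female 2 alone gave medians of -0.03, -0.02 and 0.02 for the hippocampus-enriched, striatum-depleted and cortex-enriched genes, and leaving out Q130 male 3 alone gave 0.48, 0.55 and 0.14. The 272 cerebellum-enriched genes kept a higher median, 0.08 over 181 tested with all 20 and 0.06 over 185 in the 18, where 114 were higher and 71 lower and 0 were called.

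Genes called between the genotypes in the 20 libraries of 2 months had mostly the opposite direction at 12 months. The 2-month comparison, in other animals, called 182 genes higher and 211 lower in Q130 striatum. Without the 6 animals whose column name matches 2 samples, the remaining 14 libraries of that age gave 0 and 1 calls. That 1 call was ENSRNOG00000011073, at -0.44 ± 0.05 (SE, edgeR adjusted p = 0.000179), and it was lower at 12 months too. Of the 182 genes higher at 2 months, 176 had a lower estimate at 12 months in the 18 libraries and 6 a higher one, with a median log2 fold change of -0.13. Of the 211 genes lower at 2 months, 200 had a higher estimate at 12 months and 11 a lower one, with a median of 0.09. At an unadjusted p under 0.05, 98 of the 182 were lower and 0 higher, where 6.62% of all genes were lower, and 60 of the 211 were higher and 1 lower, where 6.5% of all genes were higher; that 1 gene was ENSRNOG00000011073, also the only one called.

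With all 20 libraries the direction was the same, with 171 of the 182 lower (median -0.17) and 156 of the 211 higher (median 0.07). Leaving out each of the 18 libraries in turn, 173 to 178 of the 182 were lower and 187 to 204 of the 211 higher. The medians came nearest to 0 without Q130 female 3, at -0.09 and 0.06. The counts at an unadjusted p under 0.05 were then 57 lower of the 182 and 38 higher of the 211. Over all genes, 1315 of 15637 were then at that p in either direction, against 2041 of 15565 in the 18 libraries. In females alone the medians were -0.17 and 0.12, and in males alone -0.07 and 0.06, with 170 and 162 of the 182 lower. At an unadjusted p under 0.05, 82 of the 182 were lower in females and 15 in males, and 65 of the 211 were higher in females and 24 in males. Over all genes, 2225 of 15645 in females and 751 of 15513 in males were at that p in either direction. Sexes were not compared by a test over these genes.

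Per library the 2 gene groups moved against each other in both genotypes. The mean level of the 182 genes was 6.15 ± 0.12 log2 CPM in the 8 Q130 libraries and 6.28 ± 0.09 in the 10 WT libraries (SD), with ranges of 5.87 to 6.25 in Q130 and 6.12 to 6.39 in WT. All 8 Q130 values lay under the WT median and 3 under the lowest WT value. The mean level of the 211 genes was 5.55 ± 0.07 log2 CPM in Q130 and 5.46 ± 0.08 in WT (SD), with ranges of 5.46 to 5.70 in Q130 and 5.37 to 5.57 in WT. All 8 Q130 values were above the WT median and 1, Q130 female 3, above the highest WT value. WT animals differed among themselves along the same line: WT female 2 had 6.12 and 5.56 log2 CPM for the 182 and the 211 genes, and WT male 3 had 6.39 and 5.38.

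**Figure D5:**
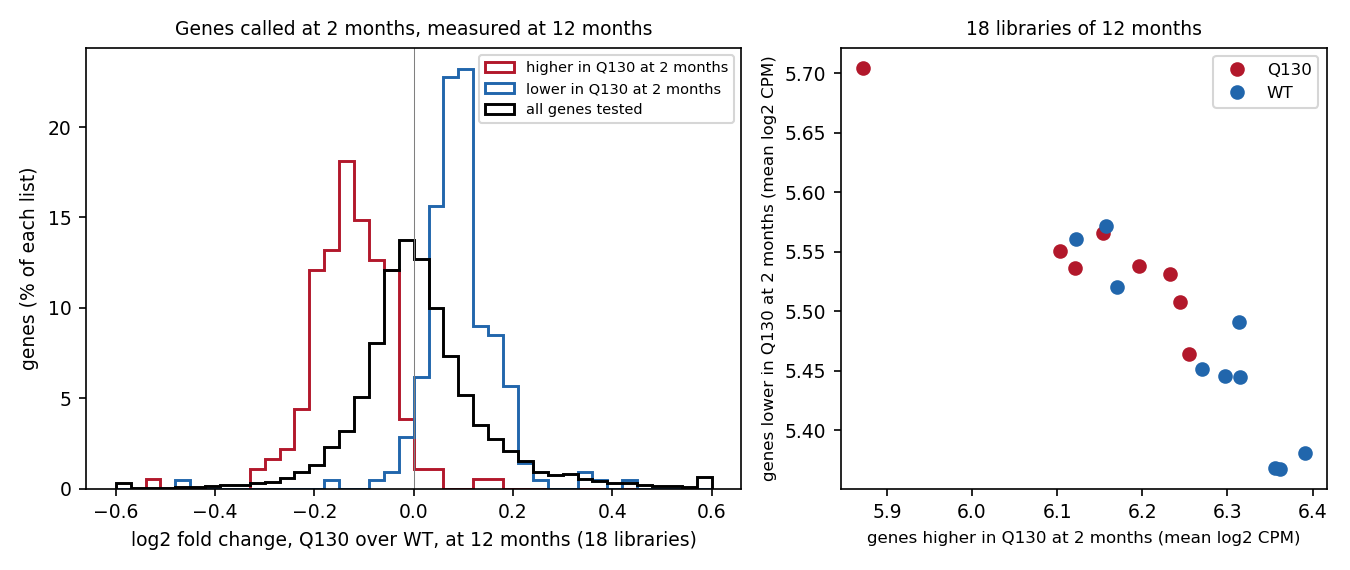
Left, log2 fold change (Q130 over WT, 18 libraries of 12 months) of the 182 genes called higher (red) and the 211 called lower (blue) in Q130 at 2 months and of all genes tested (black), as the percentage of each list per bin, with values beyond 0.6 placed in the end bins. Right, mean log2 CPM of the 211 against the 182 genes in each of the 18 libraries, with Q130 in red and WT in blue; the lists have medians of -0.13 and 0.09 on the left, and Q130 female 3 is the point at the upper left.

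Gene length was measured beside these groups. Relative length was available for 210 of the 211 genes, 101 of them in the longest quintile of all genes, and for 180 of the 182, 36 of them in that quintile. Over all genes the median log2 fold change at 12 months was 0.01 in the shortest and -0.01 in the longest quintile of the 18-library fit. Within the quintiles, the genes lower at 2 months had medians of 0.08 to 0.11 and those higher at 2 months medians of -0.13 to -0.10. Whether gene length has a part in these differences was not tested. Of the 100 striatum-enriched genes, all tested at 2 months, 17 were among the 182 and 0 among the 211, where 2.54% of all 15500 genes were called in either direction.

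At 6 months and in other tissues the same genes were nearer to 0. In striatum at 6 months, with 1 library under 0.97 left out, 124 of the 182 were lower (median -0.02) and 164 of the 211 higher (median 0.05). At 12 months the medians of the 182 and 211 genes were -0.01 and 0.02 in cortex, -0.02 and 0.01 in hippocampus and 0.01 and -0.01 in cerebellum. In the other direction of choice, the genes at an unadjusted p under 0.05 at 12 months in the 18 libraries were looked up at 2 months. Of 1011 such genes higher at 12 months, 995 were tested at 2 months and 836 were lower there, 295 of them at an unadjusted p under 0.05, where 9.79% of all 15500 genes tested at 2 months were lower. Of 1030 lower at 12 months, 1026 were tested and 924 were higher, 436 of them at that p, where again 9.79% of all genes were higher.

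The difference between ages was tested gene by gene over all striatal libraries. With every library 273 of 16113 genes had an effect of genotype at 12 months that differed from that at 2 months (edgeR interaction, adjusted p under 0.05), 177 with a higher and 96 with a lower effect at 12 months. Without the libraries under 0.97 the counts were 621 of 16197, 347 higher and 274 lower. Of the 347, 339 were in the separate fits of both ages, and their estimates had opposite signs in all 339, with medians of 0.15 at 12 months and -0.17 at 2 months. Of the 274, 271 were in both fits, opposite in sign in all 271, with medians of -0.13 at 12 months and 0.14 at 2 months; 17 of these were striatum-enriched, and 0 of the 347 were, where 1.69% of all genes tested had a lower and 2.14% a higher effect at 12 months. Genes chosen by this interaction tend to have opposite signs by construction, so these signs are a description. Libraries of 12 months and of 2 months belong to different batches, and age and batch cannot be told apart.

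Between 12 and 6 months 0 genes were called, with all libraries (2198 at an unadjusted p under 0.05) and without those set apart (1261). For ENSRNOG00000011073 the effect at 12 minus 6 months was -0.10 ± 0.06 without the libraries set apart (SE, edgeR adjusted p = 0.666).

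Against the other tissues of the same animals, few genes differed in their genotype effect. The effect in striatum minus the mean effect in cortex, hippocampus and cerebellum, with the animal as a block, gave 0 calls of 16438 with all libraries (1808 at an unadjusted p under 0.05) and 3 of 16512 without those set apart. For these 3 genes the difference was 0.41 ± 0.07, -0.41 ± 0.07 and -0.31 ± 0.06 (SE; edgeR adjusted p = 0.00654, 0.00654 and 0.0426). None of the 3 was called in the striatum alone or at 2 months. ENSRNOG00000011073 was not among them: its difference was -0.12 ± 0.06 (edgeR adjusted p = 0.506), with estimates of -0.31 in cortex, -0.25 in hippocampus and -0.50 in cerebellum beside -0.46 in striatum.

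The cerebellum of these animals had 131 genes called higher and 107 called lower in Q130 at 12 months. In striatum, 126 of the 131 were tested in the 18 libraries and 76 had a higher estimate, with a median of 0.02; 106 of the 107 were tested, of which 65 were lower (median -0.02). At an unadjusted p under 0.05, 15 of the 126 were higher and 13 lower in striatum, and 19 of the 106 were lower and 5 higher. Over all genes tested in striatum, 6.5% were higher and 6.62% lower at that p. The animals are the same in the 2 tissues.

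Genes that changed with age in WT striatum between 2 and 6 months were also followed. Of 1294 genes higher at 6 months, 1292 were tested and 797 had a higher estimate in Q130 at 12 months in the 18 libraries (median 0.03, 176 higher and 59 lower at an unadjusted p under 0.05). Of 1364 genes lower at 6 months, 1354 were tested and 807 had a higher estimate (median 0.02, 108 higher and 55 lower). Both age lists thus had a slight majority of higher estimates, against 50.6% of all genes tested. At an unadjusted p under 0.05, 6.5% of all genes were higher and 6.62% lower.

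No gene passed the test of a genotype effect that differs between the sexes. The interaction test called 0 of 15426 genes with all 20 libraries (1015 at an unadjusted p under 0.05) and 0 of 15565 in the 18 (1128). Tested alone, in the 18 libraries, females (4 Q130 and 5 WT) gave 0 calls with 2225 genes at an unadjusted p under 0.05, and males (4 Q130 and 5 WT) gave 1 call, ENSRNOG00000011073, with 751.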

How the data were processed

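RNA sequencing of 20 striatal libraries was analysed with the other 220 study libraries as context. The authors deposited estimated counts (expected counts, not whole numbers) for 32883 Ensembl genes, not normalized for depth. These were rounded to whole numbers here. They also deposited a table named FPKM whose columns sum as TPM does, used for the deposited TPM values and relative gene length. Per the labels' protocols total RNA was extracted from frozen tissue with a Qiagen kit; which aligner, counter and genome build the authors used is not given in the sources used here. For 12 males of 2 or 6 months the count table has 2 columns matching one animal; the column spelled as the label was used, which is an inference, and the other 12 per-sample columns were not used.

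Genes were filtered with filterByExpr, normalized with TMM and tested in edgeR 4.0.16 (R 4.3.3) by robust quasi-likelihood F tests with sex as a covariate and Benjamini-Hochberg adjustment over all genes tested; the scripts were tested on simulated data. Interactions used the 60 striatal libraries (sex, age) or the 80 libraries of 12 months (animal as a block). For log2 CPM a prior count of 2 was set, over genes averaging 10 counts or more per library. Alternatives used DESeq2 1.42.0 and limma 3.58.1. Replicates are separate animals; replicate numbers within sex did not pair animals. Total counts per library were 26.0 to 42.3 M.

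Members, gene groups and lists were chosen with earlier results of these data known. Named genes had to be called, or have the smallest p in a direction in the 18-library fit with a mean of at least 1 CPM over the 20 libraries, at most 2 per direction; the rule's requirement of a gene symbol could not be met. Fixed lists of gene symbols were not tested, as no identifier has a symbol.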

Additional observations from a re-analysis of the deposited data

Results flagged for a closer look

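Across 32 groups of libraries and measures, 11 values lay farther from the rest of their group than Dixon's test allows at the 95% level, where chance gives about 1 in 20 groups. The groups share libraries, so the flags are not independent of one another. The library labelled Q130 male 3 accounted for 5: its correlation with striatal libraries (0.859), its spread around the median library (0.985 log2 units), its male-marked genes (5.37 log2 CPM), ENSRNOG00000000451 (52.3 CPM) and ENSRNOG00000021243 (204 CPM). That correlation is the measure that set the library apart, and both genes reached a mean of 1 CPM only through this library. The flags for these values therefore follow from the selection. The library labelled Q130 female 2 accounted for 4: male-marked genes (4.23 log2 CPM, in a library labelled female), hippocampus-enriched genes (2.20), cortex-enriched genes (0.278) and ENSRNOG00000011073 (143 CPM). Of libraries not set apart, Q130 female 3 was high in the genes lower at 2 months (5.70 log2 CPM), and WT male 4 had a spread of 0.198 log2 units around the median library.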

How the results depend on the processing

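With all 20 libraries the count of 0 calls became 4 with DESeq2, 3 with limma-voom and library quality weights, and 1124 (999 higher, 125 lower) in 1 fit over all 60 striatal libraries, where the spread is shared with younger groups. Leaving out 1 library gave 0 to 1 calls; it was 1 without Q130 female 2 or without WT female 1. Without the 2 libraries set apart the count of 1 became 52 with DESeq2, 2 with quality weights, 8 in the fit over all ages, 0 in females alone, and 0 with the replicate number as a replicate block, where ENSRNOG00000011073 had an adjusted p of 0.0951. Same-numbered animals did not deviate together (correlations -0.05 to 0.07 over 8 pairs), so the numbers name animals and the block removes degrees of freedom. Leaving out 1 of the 18 gave 1 to 3 calls: 2 without Q130 female 1, WT female 1 or WT male 5, and 3 without WT female 3 or WT male 4. Interactions by age (273 against 2 months) and tissue (0) became 621 and 3 without libraries under 0.97. RLE size factors, other count filters and no sex term left both counts as they were, and no named gene changed direction under any alternative. The 2-month lists grew to 710 and 711 genes with quality weights and shrank to 0 and 1 without the 6 animals of that age whose column name matches 2 samples (14 libraries), a check chosen after seeing the data; that alternative also has fewer libraries. The 1 gene left without those animals, ENSRNOG00000011073, was lower at 12 months too. Of the lists by quality weights, 668 of 709 tested genes from the first were lower at 12 months and 645 of 711 from the second higher. Over 11 gene groups, the median log2 fold change moved by less than the SD among WT libraries in 319 of 319 values without the libraries set apart and in 322 of 341 with all 20. The mean level had a WT SD of 0.10 for striatum-enriched (median -0.10 in the 18) and 0.14 for cortex-enriched genes (median 0.00). For the 182 genes higher at 2 months it was 0.09 (median -0.13). A median smaller than that SD could change sign and still count as unmoved, so these counts do not show that directions were kept.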
